A study of Mus musculus with 18 samples.

Results

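The activin, inhibin and follistatin system was examined in mouse uterus through 10 genes, chosen by symbol from the 25791 genes of a deposited expression table. They were the subunit genes Inhba, Inhbb and Inha, the follistatin family genes Fst, Fstl3 and Fstl1, and the receptor genes Acvr1, Acvr1b, Acvr2a and Acvr2b. All 10 were in the table, and 9 of them passed the filter on low values, which asked for 3 or more of the 18 libraries to reach 1 FPKM. Acvr2b did not, with a highest value of 0.752 FPKM. FPKM, fragments per kilobase of transcript scaled to the mapped fragments, is a level corrected for gene length and for library size. The rule was a list of symbols.

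The RNA came from uterine cross sections of 12-week-old mice of mixed 129Sv and C57BL/6 background. Wild-type mice (WT) were compared with mice carrying a uterine-specific Tsc2-null genotype (KO), in which the gene for tuberin, a brake on the growth-promoting kinase complex mTORC1, is deleted. Each genotype was studied with its ovaries in place (intact), after ovariectomy at 4 weeks of age (ovx), and after the same ovariectomy with a pellet of 0.5 mg 17β-estradiol made for 90 days of release and carried for 8 weeks (E2). The 6 groups held 3 libraries each. The labels name neither the Cre line nor the estrous stage of the intact mice, and the cells in which Tsc2 was deleted are not given in the sources used here. Nor do they tie libraries to separate animals, so the p-values cover the spread from library to library, which may be technical.

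Activins are dimers of the beta subunits encoded by Inhba and Inhbb. They bind the type II receptors ACVR2A and ACVR2B, which recruit the type I receptor ALK4 (encoded by Acvr1b), and the complex phosphorylates SMAD2 and SMAD3. Inhibins pair the alpha subunit encoded by Inha with a beta subunit and compete for the type II receptors without signalling through ALK4. Follistatin (Fst) and the follistatin-like protein FSTL3 bind activins and keep them from their receptors, whereas FSTL1 shares the follistatin domain but is better known as a secreted glycoprotein of mesenchymal cells. In the uterus, activins and follistatin are known for their part in the preparation of the endometrium for implantation and in decidualization.

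Promoter sequences were available for 9 of the 10 genes (all but Fst) in a RefSeq table for GRCm38.p6, as the 250 bases before each start. Printed here are 3 of them, because Inhbb had the largest response to estradiol, Acvr1b is the receptor gene that rose with estradiol in WT, and Fstl3 holds a pair of neighbouring single-arm sites. The windows were searched on both strands for the palindromic estrogen response element, for a single arm of it, GGTCA (which every palindrome contains), the E-box CACGTG bound by factors such as TFEB and TFE3, and the palindromic SMAD-binding element GTCTAGAC. Capitals mark a match.

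Inhbb, chr1:119422249-119422498, minus strand: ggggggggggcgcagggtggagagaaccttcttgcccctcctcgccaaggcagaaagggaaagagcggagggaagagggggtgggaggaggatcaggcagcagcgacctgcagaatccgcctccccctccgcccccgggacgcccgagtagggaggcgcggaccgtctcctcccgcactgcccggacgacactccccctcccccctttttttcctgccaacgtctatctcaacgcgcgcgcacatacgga

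Acvr1b, chr15:101173822-101174071, plus strand: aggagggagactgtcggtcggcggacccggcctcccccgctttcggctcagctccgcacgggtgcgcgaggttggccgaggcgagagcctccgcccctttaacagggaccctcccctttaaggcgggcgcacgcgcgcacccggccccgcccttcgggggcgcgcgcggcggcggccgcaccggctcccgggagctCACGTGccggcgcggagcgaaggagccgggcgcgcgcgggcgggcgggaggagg

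Fstl3, chr10:79777024-79777273, plus strand: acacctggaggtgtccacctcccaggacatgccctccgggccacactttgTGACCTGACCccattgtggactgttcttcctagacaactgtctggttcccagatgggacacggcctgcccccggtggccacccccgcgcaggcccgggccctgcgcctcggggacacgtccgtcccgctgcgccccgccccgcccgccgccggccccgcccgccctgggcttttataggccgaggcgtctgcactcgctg

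No window of the 9 held the full estrogen response element or the SMAD-binding palindrome, which were found in 0.064% and 0.168% of 32817 promoter windows of the same length. The single arm was present in 35.2% of all windows and in 3 of these 9, with matches starting 200 and 195 bases before the start of Fstl3, 68 before that of Inha and 218 before that of Inhba. CACGTG stood 54 bases before the start of Acvr1b and in 6.02% of all windows. The Inhbb window held none of the 4 motifs. Its GC content was 68%, that of Acvr1b 78.8% and that of Fstl3 71.2%, against a median of 52.4% over all windows.

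FPKM summed to between 216032 and 591668 per library. Read totals were not given, so the depth of the libraries is unknown apart from the relative depth within 4 sets of libraries that share the steps of their lowest values, which ran from 0.3764 for KO E2 replicate 3 to 1. Libraries of a group resembled each other least in WT intact (lowest Pearson's r across genes 0.8722) and KO E2 (0.8918). Tsc2 itself was at 2.51, 2.25 and 2.04 FPKM in the WT intact libraries and at 1.88, 1.98 and 1.62 in KO intact ones, and 2.73, 2.38 and 2.66 in WT E2 against 2.42, 1.75 and 2.28 in KO E2. It was 3.24, 3.49 and 3.17 in WT ovx against 2.98, 3.33 and 2.39 in KO ovx, so it was lower on average in every state but did not pass the test over the 3 states (log2 difference -0.18 ± 0.07 SE, limma adjusted p = 0.158). Smooth muscle, stromal, epithelial, adipocyte and leukocyte marker levels also varied between libraries, and they are given beside the genes they move with. In bulk tissue, fewer cells of a type and less RNA per cell cannot be told apart.

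Differences below are between group means of log2(FPKM + 1) with the SE of the model, tested with limma and adjusted over the 13898 genes tested (threshold 0.05). This scale understates the fold of genes near or under 1 FPKM, so ratios of mean FPKM are given as well. Between genotypes, 2 of the 9 genes passed in the intact state (Fst and Inhbb, both higher in KO, against 2.18% of all genes tested, 1.19% higher and 0.993% lower) and 1 in the E2 state (Fst, higher in KO, against 8.49%, 4.91% higher and 3.58% lower). In the ovx state 0 passed, against 5.42% of all genes, 4.63% higher and 0.791% lower, and 2 of 9 had an unadjusted p under 0.05, against 21.1% of all genes. Averaged over the 3 states, 1 passed (Fst, higher, against 5.9%, 4.17% higher and 1.73% lower).

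Estradiol moved more of the system, as it did the genes tested as a whole. Comparing E2 with ovx, 3 of 9 genes passed in WT (Inhbb and Acvr1b higher, Inha lower, against 47.5% of all genes, 32.3% higher and 15.2% lower) and 4 in KO (Inhbb, Inhba and Fst higher, Acvr2a lower, against 27.1%, 15.9% higher and 11.2% lower). Comparing intact with ovx, 3 passed in WT (Acvr1 higher, Inha and Fstl3 lower, against 45.3%, 29.9% higher and 15.4% lower) and 2 in KO (Inhbb and Fst higher, against 15.9%, 7.14% higher and 8.74% lower). The shares in WT were below those of all genes. The difference between genotypes in the intact-against-ovx response passed for Inhbb and Fst (2 of 9, both higher in KO, against 4.63%, 1.02% higher and 3.6% lower), and that in the E2-against-ovx response passed for 0 of 9, against 11% of all genes, 4.05% higher and 6.95% lower. In that last comparison 5 of 9 had an unadjusted p under 0.05, against 28% of all genes. The KO against WT comparisons share libraries with the hormone comparisons, so these counts are not independent of each other.

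**Figure D1:**
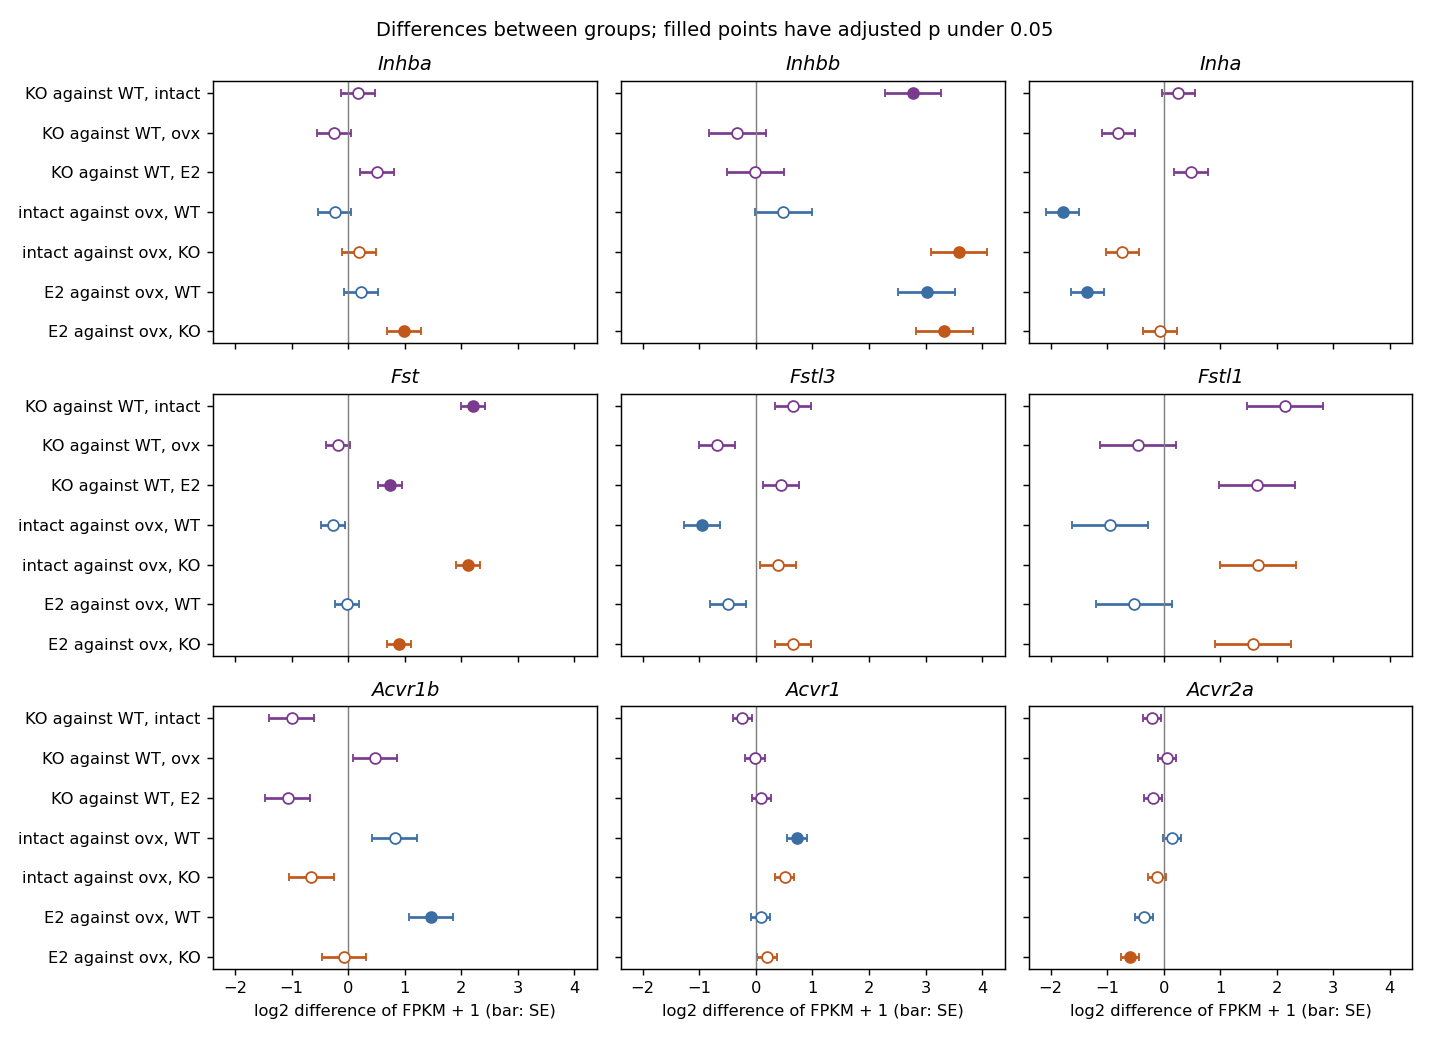
Differences on the log2(FPKM + 1) scale for the 9 tested genes (panels) in 7 comparisons (rows). Points carry the standard error of the model as bars, and filled points passed an adjusted p of 0.05. Inhbb stands farthest to the right in both E2-against-ovx comparisons (3.02 and 3.33), and Fst stands right of 0 in KO against WT in the intact state (2.21).

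Inhbb, which encodes the beta B subunit of activin B and inhibin B, was the main beta subunit transcript and the member with the largest change under estradiol. The table places it at chr1:121312041-121318825, in coordinates of an unnamed build that differs from the promoter table's, as all table positions below are. WT ovx uteri had 1.18, 1.72 and 1.43 FPKM and WT E2 uteri 17.6, 17.3 and 21.5. KO ovx libraries had 0.395, 0.600 and 2.28, and KO E2 libraries 34.7, 18.4 and 9.83. In both genotypes every E2 library was above every ovx library, and the groups were apart for 66.7% of all genes in WT and 36.3% in KO.

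The rise with estradiol was 3.02 ± 0.50 in WT (adjusted p = 0.000345, 13.1 times the ovx mean) and 3.33 ± 0.50 in KO (adjusted p = 0.000214, 19.3 times). It passed without each library in turn and in all 7 other settings tried, in both genotypes. The 2 rises differed by 0.32 ± 0.71, which was not past the threshold (adjusted p = 0.81). KO and WT did not pass in the E2 state either (-0.01 ± 0.50, 95% interval -1.08 to 1.05, adjusted p = 0.995), nor in the ovx state (-0.33 ± 0.50, adjusted p = 0.786), and the E2 interval leaves room for a difference of about 1 log2 unit either way. Summed epithelial markers ran from 84.6 to 157 FPKM in WT ovx and from 729 to 1310 in WT E2, but from 212 to 675 in KO ovx and from 131 to 794 in KO E2. Macrophage markers ran from 23.4 to 31.8 and from 204 to 653 in the same WT groups, and from 21.8 to 34.8 and from 535 to 751 in KO. The part of these cells in the Inhbb rise was not tested.

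With ovaries in place the genotypes were apart. Inhbb was 0.562, 2.30 and 6.71 FPKM in WT intact uteri and 17.8, 21.2 and 29.7 in KO intact uteri, so the highest WT library lay below the lowest KO library. The mean of 22.9 ± 6.13 in KO (SD, n = 3) was 7.18 times the WT mean of 3.19 ± 3.17, a difference of 2.78 ± 0.50 (adjusted p = 0.0111). Without KO intact replicate 3 the same size of difference had an adjusted p of 0.0517, and with the intact libraries fitted alone it was 0.143. Within the library sets, it was 2.79 in set 1 (2 libraries a genotype) and 2.75 in set 2 (1 a genotype).

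Against ovx, the intact level was higher by 3.59 ± 0.50 in KO (adjusted p = 0.000232, 21 times) and by 0.49 ± 0.50 in WT (adjusted p = 0.448). The difference between these differences was 3.10 ± 0.71 (95% interval 1.60 to 4.61, adjusted p = 0.0267). It lost the threshold without any one of KO intact replicates 3 and 4, the 3 WT ovx libraries and KO ovx replicate 1 (adjusted p 0.0509 to 0.0701), and with a term for the library sets (2.97, adjusted p = 0.0542). The level in KO intact uteri thus overlapped those in both E2 groups, and WT intact overlapped WT ovx.

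**Figure D2:**
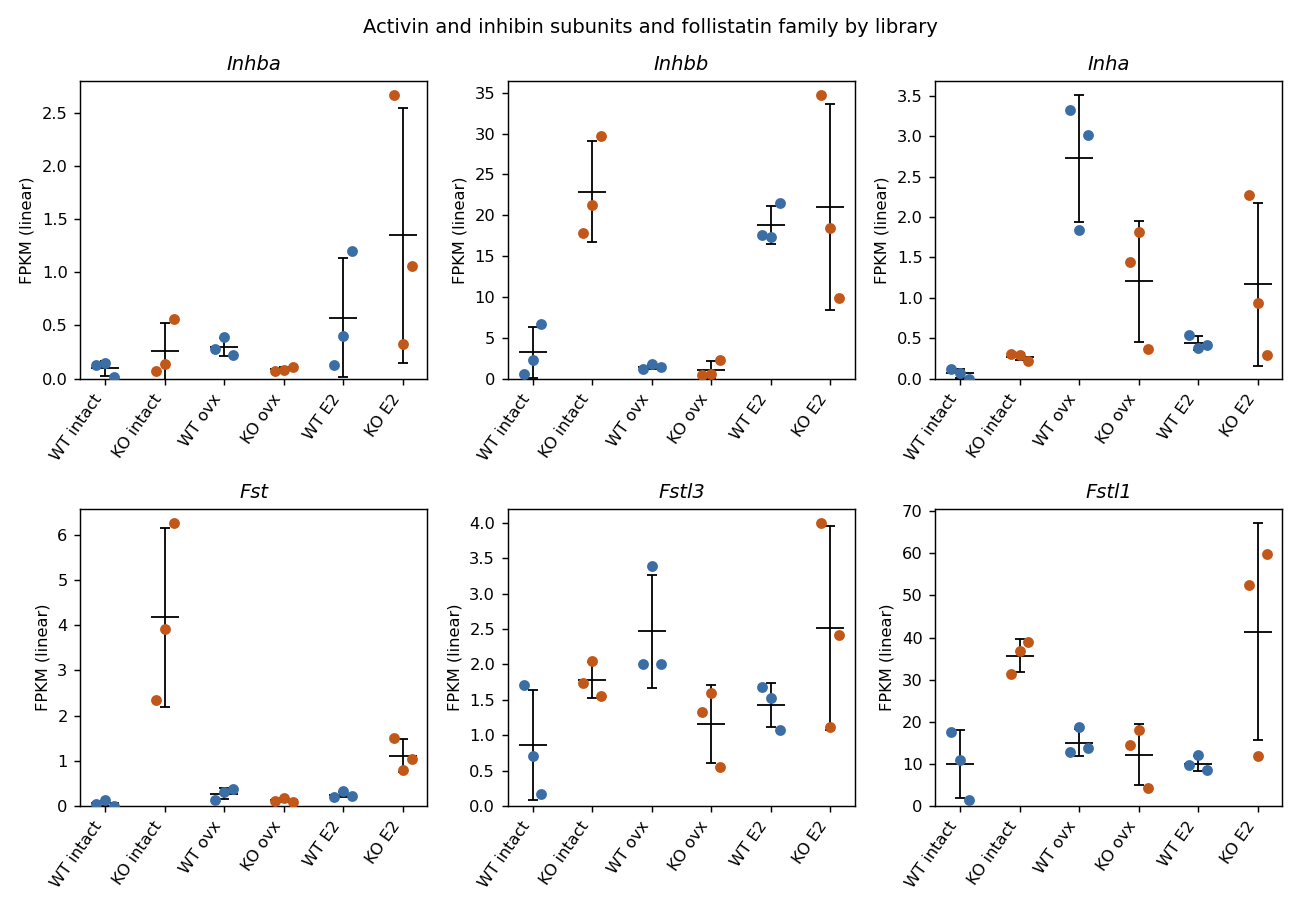
FPKM of the subunit and follistatin family genes in each of the 18 libraries by group, with blue for WT and orange for KO. Points are libraries, bars the group mean and whiskers the SD. Inhbb lies between 17.8 and 29.7 in KO intact and between 0.562 and 6.71 in WT intact, while Fst lies above 2 FPKM in KO intact libraries alone.

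Inhba, the gene for the beta A subunit (chr13:16106307-16119044), stayed far below Inhbb. It had 0.132, 0.146 and 0.0168 FPKM in WT intact, 0.0719, 0.138 and 0.565 in KO intact, 0.274, 0.392 and 0.221 in WT ovx, and 0.0753, 0.0776 and 0.107 in KO ovx. Estradiol-treated uteri had 0.125, 0.399 and 1.20 in WT and 2.67, 0.323 and 1.06 in KO. Only 3 libraries, all E2, reached 1 FPKM, which is the number the filter required. Without the filter the adjusted p for KO E2 against KO ovx, given next, was 0.0323.

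Inhba was higher in KO E2 (1.35 ± 1.20 FPKM) than in KO ovx (0.0866 ± 0.0175) by 0.99 ± 0.30 (adjusted p = 0.0232), with no overlap, as for 36.3% of all genes. The call was lost without KO E2 replicate 1 (0.60, adjusted p = 0.115) and without KO ovx replicate 1 or 2 (0.0654 and 0.0625). It was also lost with the compared groups alone (limma adjusted p = 0.112). KO against WT under estradiol gave 0.51 (adjusted p = 0.346), and 0.86 without KO E2 replicate 2 (adjusted p = 0.0424). Summed neutrophil markers (7 of 7 in the table) were 14500, 3090 and 1320 FPKM in the KO E2 libraries, 3.6, 3.6 and 269 in KO ovx, and 69.6, 2350 and 559 in WT E2. The KO E2 library highest in Inhba was highest in these markers too. One of the 7, the lactoferrin gene Ltf, is also made by estrogen-exposed uterine epithelium, and it was 192, 1670 and 29.6 FPKM in KO E2 and 0, 2100 and 0 in WT E2. WT ovx had 4.63, 2.93 and 10.3, and whether the values of 0 are true levels cannot be told here. Without Ltf the sums were 14400, 1420 and 1290 in KO E2, 1.96, 2.21 and 216 in KO ovx, and 69.5, 242 and 559 in WT E2, the last in the order of Inhba. The part of these cells in the result was not tested. Inhbb made up between 81% and 99.8% of the sum of both beta subunit levels (median 94.4% over 18 libraries).

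Inha, which encodes the alpha subunit that turns a beta subunit into an inhibin, was highest after ovariectomy in WT uteri. At chr1:75503651-75506929 in the table, it had 3.32, 1.84 and 3.02 FPKM in WT ovx, 0.544, 0.374 and 0.411 in WT E2, and 0.117, 0.0744 and 0 in WT intact. The WT ovx libraries were above all other WT libraries, and intact and ovx libraries were apart for 61% of all genes in WT. Inha was lower in E2 than in ovx (-1.35 ± 0.29, adjusted p = 0.00206) and lower in intact than in ovx (-1.79 ± 0.29, adjusted p = 0.000406). Both calls held without each library in turn and in every other setting run. Inha reached 1 FPKM in 6 libraries (3 of WT ovx, 2 of KO ovx and 1 of KO E2), so no WT intact or WT E2 library helped it through the filter, and without the filter the adjusted p was 0.00398 for E2 and 0.000831 for intact.

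KO uteri had 1.44, 1.81 and 0.36 FPKM of Inha in ovx, 2.27, 0.93 and 0.297 in E2, and 0.303, 0.287 and 0.218 in intact. The KO ovx and KO E2 ranges overlapped. KO ovx lay below WT ovx in every library, as for 40.2% of all genes, but the difference of -0.80 ± 0.29 did not pass (adjusted p = 0.128). KO intact against KO ovx gave -0.73 ± 0.29 (adjusted p = 0.105, and -1.05 with 0.0194 without KO ovx replicate 4). The genotypes' responses to E2 differed by 1.28 ± 0.42 (adjusted p = 0.0595).

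Because Inha is best known from ovarian granulosa cells, markers of ovary were read beside it. The summed level of 11 such markers ran from 0.518 to 11.3 FPKM over all libraries, and 2 of the 11 (Foxl2 and Star) passed the filter. The granulosa marker Amh reached at most 0.145 FPKM, the steroidogenic enzyme gene Cyp11a1 0.752, the luteinizing hormone receptor gene Lhcgr 0.037 and the oocyte gene Zp3 0.0679. Foxl2, a transcription factor gene of granulosa cells and of uterine stroma, moved with Inha between WT ovx and WT intact. It was at 7.85, 10.5 and 7.29 FPKM in WT ovx and 4.47, 0.443 and 0.0952 in WT intact (-2.20 ± 0.57, adjusted p = 0.00674). In KO, Foxl2 was 4.17, 5.09 and 0.6 FPKM in ovx, 1.31, 1.32 and 3.78 in intact and 1.15, 1.86 and 0.128 in E2. Inha, by contrast, had a higher mean in KO E2 than in KO intact. Star was 0.774, 0.588 and 0.692 FPKM in WT ovx and 0.449, 1.89 and 0.293 in WT intact, ranges that overlapped. Summed stromal markers were 508 to 596 FPKM in WT ovx, 142 to 205 in WT E2 and 53.9 to 521 in WT intact, the last overlapping WT ovx. The part of the stromal markers in the result was not tested.

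Fst, the gene for follistatin, was the antagonist that passed the genotype test, in the intact and E2 states. The table places it at chr13:115242469-115248938. In intact uteri it was 0.0461, 0.129 and 0.00835 FPKM in WT and 2.34, 3.91 and 6.26 in KO, with no overlap, as for 22.8% of all genes. Under estradiol it was 0.213, 0.333 and 0.231 in WT and 1.51, 0.802 and 1.05 in KO, again apart. After ovariectomy it was 0.14, 0.312 and 0.38 in WT and 0.112, 0.185 and 0.0975 in KO, and the ranges overlapped.

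Fst reached 1 FPKM in 5 libraries, all KO, and so passed the filter only through the genotype where it was high. Without the filter the adjusted p of KO against WT was 0.00122 in intact and 0.0534 in E2. The intact KO mean of 4.17 ± 1.98 FPKM was 68.1 times the WT mean of 0.0612 ± 0.0617, a difference of 2.21 ± 0.21 (adjusted p = 0.000377). With a pseudocount of 0.1 in place of 1 it was 4.69. The call held without each library, and it was lost when the intact libraries alone were fitted (adjusted p = 0.0708), where 25 genes in all passed. Within the sets the difference was 2.26 in set 1 and 2.12 in set 2. In the E2 state KO was 4.32 times WT (0.74 ± 0.21, adjusted p = 0.0421). That call was lost without any 1 of the 3 WT E2 libraries or of KO E2 replicates 1 and 3 (adjusted p 0.0665 to 0.203) and in 4 of 7 other settings, although the difference was 0.74 within each of sets 3 and 4. KO and WT did not pass in ovx (-0.17 ± 0.21, adjusted p = 0.722). Averaged over the states the difference was 0.93 ± 0.12 (adjusted p = 0.00108).

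In KO uteri Fst followed the hormone state. It was higher in E2 than in ovx by 0.89 ± 0.21 (adjusted p = 0.00649, 8.48 times) and higher in intact than in ovx by 2.12 ± 0.21 (adjusted p = 1.13e-05, 31.6 times). WT uteri gave -0.02 ± 0.21 for E2 (adjusted p = 0.953) and -0.26 ± 0.21 for intact (adjusted p = 0.325, and -1.24 with 0.027 at a pseudocount of 0.1). The genotypes differed in the intact-against-ovx response by 2.38 ± 0.30 (95% interval 1.75 to 3.02, adjusted p = 0.00209), which passed without each library. They differed in the E2 response by 0.91 ± 0.30 (adjusted p = 0.0626), which passed in 4 of the 7 other settings, at a pseudocount of 0.1 (2.40, adjusted p = 0.0264) among them.

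Markers of muscle and vessels were also higher in KO intact uteri. The 10 smooth muscle markers summed to 139, 471 and 74.1 FPKM in WT intact and 1730, 1570 and 496 in KO intact, and the 10 endothelial markers to 18.3, 13.8 and 3.3 against 32.1, 84.4 and 39.7. In KO E2, where Fst was also above WT, smooth muscle markers were 213, 218 and 307 FPKM against 190 to 815 in WT E2, and endothelial markers 19 to 65.6 against 13.5 to 18.8. The part of these cells in the Fst result was not tested.

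Fstl3 (chr10:79240018-79251730), which encodes another activin-binding follistatin family protein, changed less. It was 2.01, 3.39 and 2.01 FPKM in WT ovx, 1.71, 0.704 and 0.177 in WT intact, and 1.68, 1.53 and 1.08 in WT E2. KO libraries had 1.33, 1.60 and 0.552 in ovx, 1.74, 2.05 and 1.55 in intact, and 4.00, 1.12 and 2.42 in E2. It was lower in WT intact than in WT ovx (-0.96 ± 0.32, adjusted p = 0.0244), a call lost without WT intact replicate 2 (0.0533), WT intact replicate 4 (-0.67, 0.124) or WT ovx replicate 2 (0.0981). That call was also lost with the compared groups alone (limma adjusted p = 0.0575). The genotype difference in that response was 1.35 ± 0.45 (adjusted p = 0.09), and the neighbours in the order of its 6 group means all overlapped.

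Fstl1 (chr16:37777140-37836602) had the highest mean FPKM of the 3 follistatin family genes in every group. It passed limma's threshold in 0 of 10 comparisons, with 7 at an unadjusted p under 0.05. Intact uteri had 17.5, 11 and 1.57 FPKM in WT and 31.4, 36.9 and 38.9 in KO, and the level was 9.68, 12.1 and 8.60 in WT E2 against 52.5, 11.9 and 59.9 in KO E2. The ovx libraries had 12.8, 18.7 and 13.8 in WT and 14.5, 18 and 4.24 in KO. KO intact did not overlap WT intact (2.14 ± 0.67, adjusted p = 0.106), and the difference passed without WT intact replicate 1 (adjusted p = 0.0401). In E2 the difference was 1.65 ± 0.67 (adjusted p = 0.154), and 2.37 (adjusted p = 0.021) without KO E2 replicate 2.

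Within each group, the library lowest in Fstl1 was also the lowest in stromal markers. The 10 stromal markers summed to 377, 521 and 53.9 FPKM in WT intact, 339, 390 and 137 in KO ovx, and 1030, 188 and 924 in KO E2. Between groups, the markers and Fstl1 did not always go together. WT ovx had 508, 596 and 516, above the 398, 432 and 402 of KO intact, where Fstl1 was higher. Adipocyte markers were at 439, 4.93 and 2400 FPKM in KO E2, so the KO E2 libraries high in Fstl1 were high in these too. KO ovx replicate 4, the lowest of its group in Fstl1, had 144. The adipocyte markers were 4.84, 47.5 and 2.74 in WT E2, 0.16 to 0.445 in WT intact and 0.309 to 0.981 in KO intact. The part of the stromal and adipocyte markers in the Fstl1 levels was not tested.

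The level of Fst was set against the summed level of Inhba and Inhbb within each library, a ratio of transcript levels per length that says nothing of protein. It was 0.00124 to 0.0666 in WT intact and 0.131 to 0.207 in KO intact, with no overlap. After ovariectomy, when both terms were low, it was 0.096 to 0.229 in WT and 0.0408 to 0.274 in KO. Under estradiol it was 0.0102 to 0.0187 in WT and 0.0403 to 0.0966 in KO, again with no overlap. The WT E2 ratios lay below those of WT ovx, with Inhbb higher in E2. Fstl3 exceeded Fst in 15 of 18 libraries, and KO intact held the exceptions (Fstl3 to Fst 0.247 to 0.745).

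**Figure D3:**
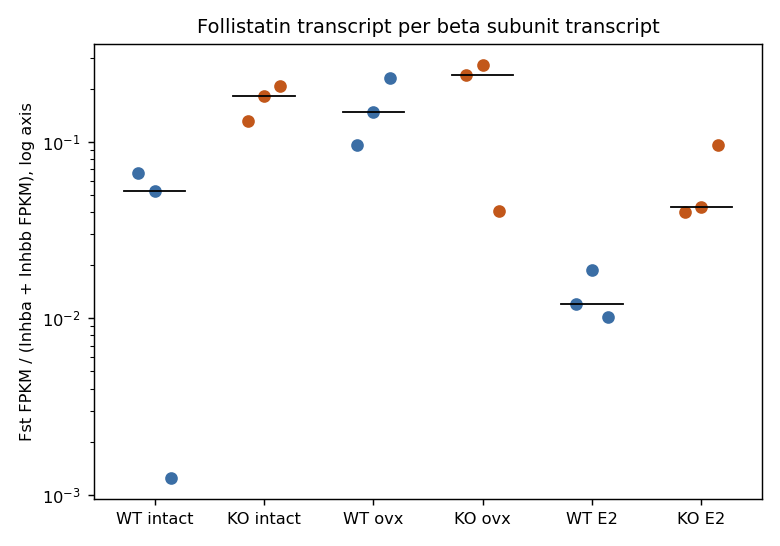
Ratio of Fst to the sum of Inhba and Inhbb (FPKM over FPKM, log axis) in each library by group, with blue for WT, orange for KO and a line at the group median. KO intact lies between 0.131 and 0.207 and WT intact at or below 0.0666, whereas the ovx groups overlap.

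Among the receptor genes, Acvr1b, which encodes the activin type I receptor ALK4 (chr15:101004555-101043032), rose with estradiol in WT. It was 2.59, 2.79 and 2.42 FPKM in WT ovx and 8.10, 6.16 and 14.1 in WT E2. The mean of 9.47 ± 4.16 was 3.64 times that in ovx (1.47 ± 0.39, adjusted p = 0.00718), and the call held without each library and in every other setting run. KO ovx libraries had 3.75, 2.83 and 5.84 and KO E2 libraries 2.71, 5.15 and 3.68, ranges that overlapped. The genotypes' responses differed by -1.54 ± 0.56 without passing (adjusted p = 0.0863).

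KO E2 lay below WT E2 in every library of Acvr1b, as for 22.5% of all genes (-1.07 ± 0.39, adjusted p = 0.111). In intact uteri it was 2.63, 4.62 and 11.6 in WT and 2.35, 1.33 and 3.13 in KO (-0.998 ± 0.39, adjusted p = 0.19). Epithelial markers moved with Acvr1b in part. The 10 markers summed to 84.6, 148 and 157 FPKM in WT ovx, 1030, 729 and 1310 in WT E2, and 429, 656 and 1440 in WT intact. KO libraries had 131, 794 and 431 in E2, 300, 212 and 675 in ovx, and 216, 413 and 444 in intact. KO intact thus lay above WT ovx in these markers, though its Acvr1b mean of 2.27 FPKM was the lowest of the groups. In 5 of 6 groups, all but WT ovx, the library highest in these markers was the highest in Acvr1b. The part of the epithelial markers in the result was not tested.

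Acvr1, the gene for ALK2, a type I receptor best known for bone morphogenetic proteins (chr2:58298848-58419239), was higher with ovaries. It was 2.80, 4.27 and 5.56 FPKM in WT intact and 1.90, 1.98 and 2.33 in WT ovx (0.73 ± 0.17, adjusted p = 0.0038, 2.03 times), a call that held without each library and in every other setting run. KO intact libraries had 3.22, 3.33 and 3.39 and KO ovx libraries 2.06, 1.95 and 2.10. These did not overlap, as for 41.1% of all genes, and the difference of 0.51 ± 0.17 had an adjusted p of 0.0578. Estradiol-treated uteri had 2.22, 1.86 and 2.72 in WT and 2.65, 2.05 and 2.76 in KO. The ratio of Acvr1b to Acvr1 was 3.3 to 5.19 in WT E2, above the 0.4 to 2.78 of all other libraries.

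Acvr2a, the gene for an activin type II receptor (chr2:48669628-48804787), was lower under estradiol in KO. It had 1.79, 1.53 and 1.44 FPKM in KO ovx and 0.513, 0.664 and 0.986 in KO E2 (-0.60 ± 0.16, adjusted p = 0.0123). That call was lost without KO ovx replicate 1 (0.0562) or KO E2 replicate 1 (0.0578) and with a term for the library sets (-0.40, 0.093). It was also lost with the compared groups alone (limma adjusted p = 0.068). WT had 1.37, 1.44 and 1.66 in ovx and 0.892, 0.575 and 1.5 in E2 (-0.35 ± 0.16, adjusted p = 0.0809), and it passed under both other scalings. Intact uteri had 1.90, 1.84 and 1.55 in WT and 1.40, 1.24 and 1.56 in KO.

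Acvr2b, the other type II receptor gene (chr9:119311618-119342633), was 0.652, 0.752 and 0.657 FPKM in WT ovx, 0.442, 0.303 and 0.272 in KO ovx, and at or below 0.384 in the intact and E2 groups. The WT ovx libraries were above all others. In the fit without the filter, over 24052 genes, it was lower in WT E2 than in WT ovx (-0.55, adjusted p = 0.000219), in WT intact than in WT ovx (-0.58, adjusted p = 0.000158), in KO E2 than in KO ovx (-0.23, adjusted p = 0.0471) and in KO ovx than in WT ovx (-0.34, adjusted p = 0.0236). In that fit the ovary response differed between genotypes by 0.45 (adjusted p = 0.0388). Acvr2a exceeded Acvr2b in every library, by 1.92 to 2.52 times in WT ovx and up to 23.7 times in WT intact.

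**Figure D4:**
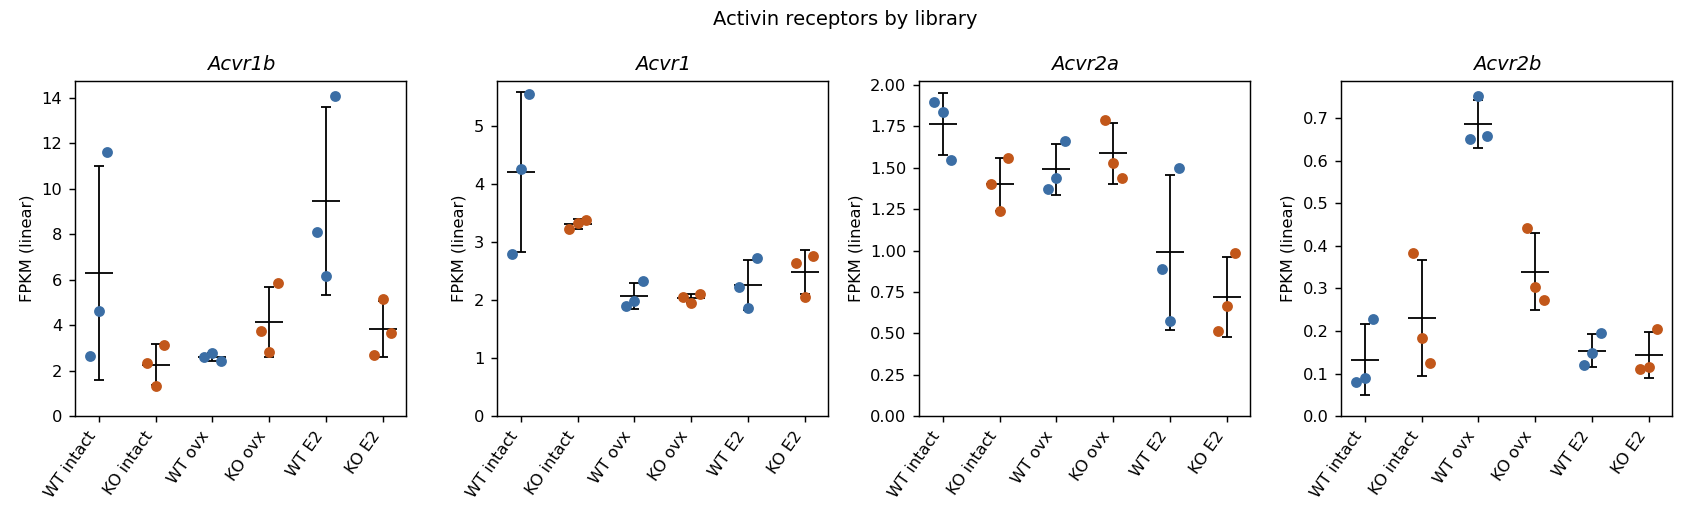
FPKM of the 4 receptor genes in each library by group, with blue for WT and orange for KO; points are libraries, bars the group mean and whiskers the SD. Acvr1b lies between 6.16 and 14.1 in WT E2 against 2.42 to 2.79 in WT ovx, and Acvr2b lies highest in WT ovx.

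The rest of the pathway was read from a list of 58 genes (other ligands, receptors, SMADs and their regulators, and secreted antagonists), of which 36 were tested. In KO against WT, 1 passed in the intact state (higher, 2.78% of the 36), 1 in ovx (lower) and 1 in E2 (higher). E2 against ovx gave 4 higher and 11 lower in WT (41.7%, median -0.35 against 0.24 over all genes) and 6 higher and 3 lower in KO (25%, median -0.03 against 0.07). Intact against ovx gave 6 higher and 11 lower in WT (47.2%) and 5 higher and 2 lower in KO (19.4%). By direction, E2 against ovx gave 11.1% higher and 30.6% lower in WT, against 32.3% and 15.2% of all genes, and 16.7% and 8.33% in KO, against 15.9% and 11.2%. Intact against ovx gave 16.7% higher and 30.6% lower in WT, against 29.9% and 15.4%, and 13.9% and 5.56% in KO, against 7.14% and 8.74%. The ovx genotype count depended on scaling, with 4 after median-ratio scaling and 11 after quantile normalization.

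Among the pathway genes, 4 of the 6 tested ligand genes fell in WT in E2 against ovx, beside 15.2% of all genes that fell, and 4 of 6 fell in intact against ovx, beside 15.4%. The SMAD2/3 feedback genes Pmepa1 and Skil rose with estradiol in WT (3.01 ± 0.41, adjusted p = 0.000136, and 1.44 ± 0.30, adjusted p = 0.00165), and Pmepa1 rose in KO (2.00 ± 0.41, adjusted p = 0.00264). Skil, below the 5 FPKM asked of named genes in KO, was 1.19, 1.11 and 1.37 FPKM in KO ovx. It was 4.72, 3.94 and 4.35 in KO E2, with no overlap. Smad5, a mediator of bone morphogenetic protein signals, fell in both (-0.71 in WT, -0.88 in KO, adjusted p 0.00697 and 0.00346), as did the corepressor gene Ski in WT (-0.80, adjusted p = 0.0118, 0.0567 without WT E2 replicate 2). In KO the TGF-beta receptor gene Tgfbr2 rose with estradiol (1.47, adjusted p = 0.00388). In intact against ovx, the co-receptor genes Tgfbr3 and Eng fell in WT (-1.68, adjusted p = 0.00791, and -1.61, adjusted p = 0.00502), and Fkbp1a, whose product guards type I receptors from leaky signalling, rose in WT and KO (0.97, adjusted p = 0.00497, and 1.42, adjusted p = 0.00111).

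Genes known to be induced through SMAD2 and SMAD3 were read from a list of 14, all tested. With estradiol, 8 rose and 1 fell in WT (median 0.90 against 0.24 over all genes), where 32.3% of all genes rose and 15.2% fell. In KO 9 rose and 1 fell (1.42 against 0.07), where 15.9% of all genes rose and 11.2% fell. Of 7 tested genes induced through SMAD1 and SMAD5, 0 rose and 1 fell in each genotype. Beside Pmepa1, the matrix-associated gene Ctgf rose in WT (2.15 ± 0.42, adjusted p = 0.00107). The protease inhibitor gene Timp1, the cell cycle inhibitor gene Cdkn1a and the fibronectin gene Fn1 rose in KO (4.01, adjusted p = 0.000165, 3.17, adjusted p = 0.000486, and 2.64, adjusted p = 0.00927). Cdkn1a rose in WT too (1.83, adjusted p = 0.0103), a call lost after quantile normalization. For Timp1, every WT E2 library (2.83, 5.93 and 3.89 FPKM) also exceeded the WT ovx ones (0.325, 0.4 and 0.437). So did the KO E2 libraries of Ctgf (15.4, 20 and 18.3) those of KO ovx (8.18, 6.67 and 4.63). Fn1 went the other way in WT without passing (7.74, 8.15 and 6.75 in E2, 10.4, 13.3 and 13.5 in ovx). The gene that fell in both was Tgfbi, which encodes a matrix protein (-2.78 in WT and -2.36 in KO, adjusted p 0.0029 and 0.0137, the latter 0.0519 without KO ovx replicate 1).

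Between genotypes, 1 of the 14 passed in intact uteri: Ctgf was 2.22, 4.17 and 0.994 FPKM in WT and 11.1, 31.8 and 13.4 in KO (2.47 ± 0.42, adjusted p = 0.00893). The Ctgf call held without each library, with a highest adjusted p of 0.0491. It was lost with the compared groups alone and with the replicate number as a block. In E2, 2 passed, Tgfbi (2.56, adjusted p = 0.0227) and Timp1 (2.41, adjusted p = 0.0192), and each was lost without WT E2 replicate 1 or 5 or KO E2 replicate 1 or 3. Both were also lost with the compared groups alone and with the replicate number as a block, and Tgfbi at a pseudocount of 0.1. In ovx, 0 of 14 passed. Tgfbi was 293, 155 and 315 FPKM in KO ovx and 49.8, 73.1 and 44.6 in WT ovx. These libraries did not overlap, as for 40.2% of all genes. Counted together with the genes induced through SMAD1 and SMAD5, 3 passed in ovx after quantile normalization and 3 with the compared groups alone. Many of these genes answer to signals besides activin, and the list's count is no measure of activin signalling. Macrophage markers summed to 204 to 653 FPKM in WT E2, 535 to 751 in KO E2 and 21.8 to 34.8 in the ovx groups, and their part in these counts was not tested.

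The tested genes whose levels followed each of 3 members most closely over the 18 libraries were taken by Pearson's r of log2(FPKM + 1), as a description, since the libraries share groups and cell make-up. For Inhbb they were Akr1c21 (0.9229), Clu (0.9183), Akr1c14 (0.9136), Pmepa1 (0.8935) and Akr1c18 (0.8934), of which 4 stayed among the first 5 at a pseudocount of 0.1 and 3 by Spearman's rho. Akr1c21, Akr1c14 and Akr1c18 encode aldo-keto reductases, enzymes that include steroid dehydrogenases, and Clu encodes the secreted chaperone clusterin. Near-identical copies of such aldo-keto reductase genes can share reads. For Fst they were Kif26b (0.8798), Crmp1 (0.8683), the vascular growth factor gene Angpt2 (0.8658), the integrin gene Itga8 (0.8599) and Tspan7 (0.8363), of which 2 and 1 stayed. For Inhba they were Zswim4 (0.9228), the kininogen genes Kng1 (0.9) and Kng2 (0.8967), the interleukin receptor signalling gene Irak3 (0.8945) and Emilin2 (0.8821), of which 2 and 1 stayed.

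Pmepa1, a target of SMAD signals that restrains them, showed the likeness to Inhbb library by library. It was 1.03, 1.41 and 1.29 FPKM in WT ovx and 15.2, 14.9 and 21.9 in WT E2, 2.35, 5.95 and 12.2 in WT intact, where Inhbb ran in the same order, and 7.68, 10.1 and 22.7 in KO intact. KO ovx had 3.5, 3.52 and 4.45, above WT ovx, although Inhbb in 2 of these libraries was below every WT ovx library. KO E2 had 23, 19 and 13.8, in the order of Inhbb.

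**Figure D5:**
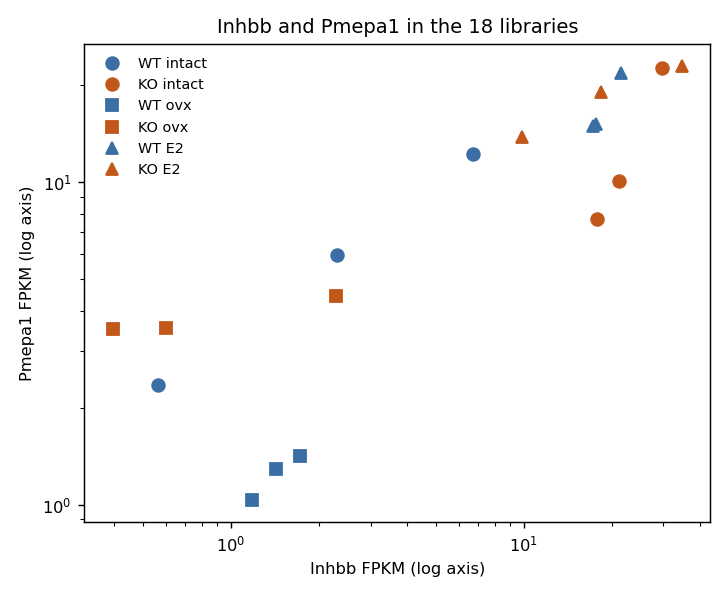
Pmepa1 against Inhbb in FPKM on log axes, a point for each of the 18 libraries, marked by genotype and hormone state. The ovx libraries lie at the lower left (Inhbb 0.395 to 2.28) and the E2 libraries at the upper right (Inhbb 9.83 to 34.7), while the WT intact libraries run from within the ovx range of Inhbb (0.562) to 6.71.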

How the data were processed

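Gene expression was taken from the table deposited by the authors, which gives FPKM values made with Cufflinks 2.0.2 and Cuffdiff per the submitters' processing notes. The aligner, annotation and genome build are not given in the sources used here. Per the labels' protocols, RNA from flash-frozen uterus was made into stranded mRNA libraries and read from a single end. Values were analysed as log2(FPKM + 1) with limma 3.58.1 in R 4.3.3: 1 mean per group over 18 libraries, moderated with a mean-variance trend, tested two-sided, and Benjamini-Hochberg adjustment over the 13898 genes with at least 1 FPKM in at least 3 libraries, within each of 10 comparisons. The model was tested on simulated data. Depth is unknown, which leaves the precision of low values unknown.

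The members, lists and tests were chosen with earlier results of these data known. All 10 members were to be named. Of the lists, a gene was eligible if it passed the threshold, averaged 5 FPKM or more in either group and did not overlap between groups, at most the 3 largest each way per list and comparison, and examples are given; 1 eligible gene is not reported here. For Fst, Inhba and Inhbb the 5 most alike genes were named. The labels name no batches. Sets 1 to 4 were found from shared steps of the lowest values: WT intact 1 and 4 with KO intact 1 and 4; WT intact 2 with KO intact 3; WT ovx 1 and 3, KO ovx 1, 2 and 4, WT E2 5 and KO E2 3; and the other 5 libraries. The number of sets was fixed at 4, and the sets were not cleanly apart. The share of low values on common steps was as low as 3.559% within a set and as high as 3.9765% between sets. The medians were 7.3273% and 1.592%. For 1 WT intact library, titled with several numbers, the replicate was read as 4. Alternatives were another pseudocount, no filter, median-ratio scaling, quantile normalization, the compared groups alone, the replicate number as a block, a term for the sets, and leaving out each library. They were also applied to the list genes, a choice made after seeing the data. Ratios of levels were computed within libraries. Promoters were read from a RefSeq table for GRCm38.p6 and figures drawn with matplotlib 3.10.9.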

Additional observations from a re-analysis of the deposited data

Results flagged for a closer look

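The response to ovaries differed between genotypes for Fst, by 2.38 on the log2(FPKM + 1) scale, and for Inhbb, by 3.10. Both were picked out because the test of the difference itself, limma's interaction of genotype with intact against ovx, passed the threshold. Every KO intact library was above every KO ovx library for both genes, and the WT ranges overlapped for Inhbb and for Fst WT intact lay below WT ovx.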

How the results depend on the processing

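Of 18 member and comparison pairs called, 12 were called without each library and 9 in every other setting run. None of the 18 changed sign in a setting run. The number of members called in KO against WT was 2 in intact (0 with the compared groups alone, 0 with the replicate block, 1 to 3 leaving out a library), 0 in ovx (1 without the filter, 0 to 0 leaving out a library) and 1 in E2 (0 without the filter, with the compared groups alone, with the replicate block and with the set term, 0 to 3 leaving out a library). Over the 3 states it was 1 (0 with the replicate block, 1 to 2). In E2 against ovx it was 3 in WT (3 to 4) and 4 in KO (2 with the compared groups alone, 2 to 6). In intact against ovx it was 3 in WT (2 to 4) and 2 in KO (2 to 3). The difference in E2 response was called for 0 members (1 at a pseudocount of 0.1, 1 after median-ratio scaling, 2 after quantile normalization, 2 with the compared groups alone, 0 to 4 leaving out a library), and that in ovary response for 2 (0 with the replicate block, 1 with the set term, 1 to 5).

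Sign changes touched 4 pairs that were not called. Inhbb in KO against WT under E2 (-0.01) was 0.0779 after median-ratio scaling, 0.0406 after quantile normalization, 0.51 with the replicate block and -0.44 to 0.42 leaving out a library. Fst in E2 against ovx in WT (-0.02) was 0.0564 with the replicate block and -0.10 to 0.0408. Inhbb in intact against ovx in WT (0.49) was -0.10 with the replicate block and -0.10 to 1.05. The Inhbb difference in E2 response (0.32) was -0.12 to 0.74. The cause was not tested. For another 38 pairs no difference is printed, and 10 of them changed sign in some setting. Replicate numbers were shared only in part: 6 pairs of libraries had the same number and state, and their deviations correlated at -0.0325 to 0.3394, 3 of them over 0.1. The median was 0.1245, against -0.0316 for pairs of libraries with other numbers in any state. So few pairs cannot show whether a shared number is more than a label. With the replicate block, which drops unpaired libraries from the estimate of the genotype difference, the adjusted p was 0.074 for Fst and 0.0795 for Inhbb in intact, 0.392 for Fst in E2, 0.164 for Fst over the states, 0.168 for Fstl3 in intact against ovx in WT, and 0.0578 and 0.0527 for the Fst and Inhbb ovary responses.

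The set term could not be estimated for intact against ovx, since the sets of intact and ovx libraries do not meet. After median-ratio scaling the median gene shifted by -0.24 in E2 against ovx and -0.25 in intact against ovx in WT, by -0.12 in KO against WT in ovx, by -0.11 in intact against ovx in KO, and by 0.18 and 0.13 in the E2 and ovary responses. The depth of single libraries is unknown, so the error of values under 1 FPKM cannot be given. Fst, Inhba and Inha mostly lie there, and Acvr2b does in every library. Acvr2b was fitted only without the filter, so its calls were not run in the other settings or leaving out a library.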

Other observations

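The WT intact libraries differed widely in members that the comparisons average. In replicates 1, 2 and 4, Inhbb was 0.562, 2.30 and 6.71 FPKM, Acvr1b 2.63, 4.62 and 11.6, and Acvr1 2.80, 4.27 and 5.56. Fstl1 (17.5, 11 and 1.57) and Fstl3 (1.71, 0.704 and 0.177) took the opposite places. Summed epithelial markers were 429, 656 and 1440 FPKM in these libraries and summed stromal markers 377, 521 and 53.9.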
